A study of Homo sapiens with 6 samples.

Results

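The salt-inducible kinases SIK1, SIK2 and SIK3, the coactivators CRTC1, CRTC2 and CRTC3, and the transcription factors CREB1, CREM and ATF1 were followed in RNA-seq of EndoC-βH1 cells. With a second identifier of SIK1, ENSG00000275993, they make up 10 of the 60671 gene identifiers in the count files, and all 10 passed the filter on low counts that left 17649 genes for testing. The members were listed by name and function, but the list was chosen on CPM in these same samples, in which SIK1 and CREM were already known to differ, so their differences between the groups are a description. Where a member is said to be called, this places it in the table of all genes and supports nothing.

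EndoC-βH1 is a human β cell line, derived from fetal pancreas, with a wild-type genotype in the labels of both groups. Polyadenylated RNA was sequenced from 3 samples treated with DMSO, the vehicle, and 3 treated with 1 µM AZD7762. AZD7762 inhibits the checkpoint kinases CHEK1 and CHEK2, and the paper's kinase profiling at this concentration found other kinases inhibited as well. All cells were starved for 1 h in 0.5 mM glucose and then stimulated for 1 h in 0.5 or 20 mM glucose, with DMSO or AZD7762 present throughout, and the labels do not say which concentration each library had. The labels do not state whether replicates were separate cultures, so the errors measure the spread between these samples, and a single cell line stands for β cells here.

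SIKs are kinases switched on by LKB1 that phosphorylate the CRTC proteins, which are then held in the cytoplasm by 14-3-3 proteins. Cyclic AMP acts through PKA to restrain the SIKs, calcium acts through calcineurin to remove phosphate from the CRTCs, and the freed CRTCs bind CREB family factors at cyclic AMP response elements in promoters. In β cells this route couples glucose and incretin hormones to transcription, and SIK1 and the short repressor form of CREM are themselves classical CREB targets.

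The libraries held 20486391 to 29402440 counts on genes, and 3 counts, taken as the floor of detection for counting error only, corresponded to 0.102 to 0.146 CPM, counts relative to the scaled library total. Mitochondrial genes took 1.57% to 2.63% of the counts. As a check of the labelled cell type, the 9 β cell markers reported all passed the filter, with a summed level of 7063 to 8216 CPM in DMSO and 7363 to 7894 CPM in AZD7762. This is a check of identity over a short list, and it does not show that β cell genes were alike in the groups. NEUROD1, for example, had a log2 fold change of -0.23 and was not called in the main fit, the quasi-likelihood test of edgeR. It was called by DESeq2 and by the likelihood ratio test of edgeR. The quasi-likelihood test also called it with a replicate term or without the filter on low counts. Of 9 markers of other pancreatic and stromal cells, 8 had a matched identifier, PECAM1 being the other, and 4 passed the filter. The 8 summed to 57.1 to 70.1 CPM in DMSO and 62.1 to 69.7 CPM in AZD7762. This sum does not cover all islet hormones. SST, an islet hormone gene outside this list, had 202 to 227 CPM in DMSO and 242 to 265 CPM in AZD7762. Of the 2 acinar markers, PRSS1 had 0 counts in every sample, whereas CPA1 had 22.6, 21 and 21.9 CPM in DMSO replicates 1, 2 and 3 and 27.5, 24.7 and 24.9 CPM in AZD7762 replicates 1, 2 and 3. CPA1 was thus detected and did not overlap between the groups, at a log2 fold change of 0.24 and an adjusted p of 0.308 in the quasi-likelihood test of edgeR, and its part in the members' values was not tested.

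Promoter sequence is shown first because CREB family factors act through a short element, the palindrome TGACGTCA or its half-site TGACG, which reads CGTCA on the other strand. RefSeq windows on GRCh38.p14, from 250 bases before to 50 after an annotated start, were available for 8 of the 9 named members, CRTC2 being the other. The 250 bases before the start of the 3 SIK genes are printed 5′ to 3′ on the strand of the gene, with each half-site in capitals, to compare the member that differed most between the groups with its 2 relatives.
SIK1, chr21:43427132-43427381, minus strand: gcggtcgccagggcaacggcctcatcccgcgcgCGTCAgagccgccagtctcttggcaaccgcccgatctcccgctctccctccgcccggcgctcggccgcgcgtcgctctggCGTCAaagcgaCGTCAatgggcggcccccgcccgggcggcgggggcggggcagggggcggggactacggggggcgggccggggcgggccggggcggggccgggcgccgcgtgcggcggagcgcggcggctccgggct
SIK2, chr11:111602199-111602448, plus strand: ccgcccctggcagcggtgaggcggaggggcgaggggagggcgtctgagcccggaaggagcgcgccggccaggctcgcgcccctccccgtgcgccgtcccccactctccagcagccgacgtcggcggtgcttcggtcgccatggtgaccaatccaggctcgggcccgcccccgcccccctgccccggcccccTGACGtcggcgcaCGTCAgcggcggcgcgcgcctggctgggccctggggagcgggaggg
SIK3, chr11:117098429-117098678, minus strand: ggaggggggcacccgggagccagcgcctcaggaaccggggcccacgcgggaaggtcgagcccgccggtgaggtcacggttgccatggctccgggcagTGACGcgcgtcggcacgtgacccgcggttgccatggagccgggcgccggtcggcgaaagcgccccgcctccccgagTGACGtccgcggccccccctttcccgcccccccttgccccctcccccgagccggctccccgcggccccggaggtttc

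SIK1 held 3 half-sites, all in the reverse orientation, beginning 217, 137 and 126 bases upstream of the start. The other two kinases had half-sites as well. SIK2 held 2, beginning 59 and 46 bases upstream, and SIK3 held 2, beginning 153 and 77 bases upstream. The full element was in none of these 3 windows. Among 35116 windows of 300 bases in RefSeq, 24.6% held at least 1 half-site, 6.02% at least 2, 1.40% at least 3 and 1.85% the full element. Half-sites within a full element were counted among the half-sites. These matches are a description of letters and not of binding.

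CREM had 7 annotated starts, and 2 of them, close together inside the gene, had the full element in their windows. It lay at the same bases in both, 50 bases upstream of the last start and 2 bases past the start before it. The element and its neighbours are shown as the one full match found in any member.
CREM, chr10:35195841-35195870, plus strand: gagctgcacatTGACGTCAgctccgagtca
Another CREM window, that of the third start, held 2 half-sites, CRTC3 held 1, and the windows of CRTC1, CREB1 and the 3 starts of ATF1 held none. In all, 5 of the 8 members with a window had at least 1 half-site in any of their windows. As CREM had 7 windows, this is not comparable with the shares of single windows over RefSeq. No motif in a window says only that these letters do not occur in it.

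**Figure D1:**
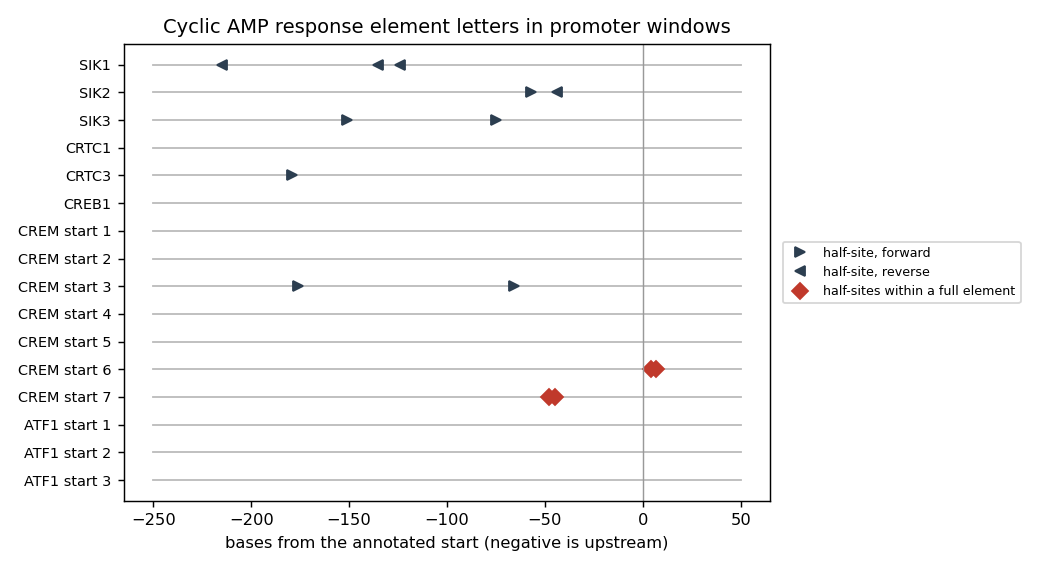
Position of cyclic AMP response element letters in the promoter window of each annotated start, in bases from the start, with half-sites as arrowheads by orientation and half-sites within a full element as diamonds. SIK1 has 3 half-sites, SIK2 and SIK3 have 2 each, and the full element appears only at starts 6 and 7 of CREM.

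Levels of different genes were compared per length, as CPM per kb of exon, where the median of the tested genes with a known exon length was 3.84 in DMSO. In DMSO the order ran from CRTC1 (12.9 ± 2.42, SD, n = 3) and ATF1 (12.6 ± 0.614) through CRTC2 (8.90 ± 0.516), SIK2 (8.83 ± 0.372) and SIK3 (8.62 ± 0.0404) to CREB1 (7.21 ± 0.207) and CRTC3 (6.30 ± 0.0434). CREM was well below these at 1.61 ± 0.109 CPM per kb, and SIK1 was at 0.207 ± 0.0425. The ranges over samples of CRTC1 and ATF1 overlapped, as did those of CRTC2 with SIK2 and of SIK2 with SIK3, whereas the other neighbours in this order did not overlap. In DMSO the level of CRTC1 exceeded that of 78.1% of the tested genes, ATF1 77.6%, SIK2 69.8%, CREM 33.1% and SIK1 6.42%.

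SIK1 was the member with the widest difference between the groups. It lies on chromosome 21 from 44834363 to 44847011 on the minus strand (ENSG00000142178, GRCh37, as are all gene positions here). In DMSO replicates 1, 2 and 3 SIK1 had 25, 35 and 23 counts, or 0.846, 1.29 and 1.10 CPM, and in AZD7762 replicates 1, 2 and 3 it had 633, 794 and 540 counts, or 25.2, 37.7 and 25.3 CPM. Every AZD7762 sample lay far above every DMSO sample, with AZD7762 replicate 2 the highest of all. The fitted log2 fold change was 4.77 (SE 0.208, 95% interval 4.32 to 5.22), which is 27.3-fold. It was the third largest among the 17649 genes tested, with the second identifier of SIK1 itself among those above it. In AZD7762 SIK1 reached 5.64 ± 1.38 CPM per kb and exceeded 59.2% of the tested genes. In bulk RNA such a level cannot tell more cells with the transcript apart from more transcript per cell.

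ENSG00000275993 stands for a second copy of SIK1. The annotation places it at the same position as SIK1 and tags it as an artifactual duplication, and RefSeq on GRCh38.p14 lists the copy elsewhere on chromosome 21 with a promoter window identical to that of SIK1 at 300 of 300 bases. It had 4, 6 and 5 counts in DMSO replicates 1, 2 and 3 (0.135, 0.221 and 0.240 CPM) and 120, 141 and 117 in AZD7762 replicates 1, 2 and 3 (4.77, 6.70 and 5.49 CPM). The DMSO counts sat just above the floor, so that it passed the filter on low counts only through AZD7762, and no sample of one group reached the range of the other. The log2 fold change was 4.83 (SE 0.260, 95% interval 4.26 to 5.39), and its interval contained that of SIK1.

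The 2 identifiers kept about the same ratio in both groups. ENSG00000275993 held 15.3% of their summed counts in DMSO (15 of 98, exact Clopper-Pearson 95% interval 8.83% to 24.0%) and 16.1% in AZD7762 (378 of 2345, 14.7% to 17.7%). These intervals pool the counts of each group and cover counting error only, not the spread between samples. By sample the share ran from 13.8% to 17.9% in DMSO and from 15.1% to 17.8% in AZD7762. Summed before the fit, the 2 identifiers stood at 0.982, 1.51 and 1.34 CPM in DMSO replicates 1, 2 and 3. In AZD7762 replicates 1, 2 and 3 they stood at 29.9, 44.4 and 30.8 CPM. The sum had a log2 fold change of 4.78 (SE 0.198, 95% interval 4.35 to 5.21).

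Absolute levels of SIK1 are uncertain for this reason. The sources name GRCh37 for the alignment, yet the identifiers in the files include such GRCh38 duplicates, so the genome and annotation behind the counts are not settled. The treatment of reads that align equally well to both copies is not given in the sources used here, and 19 identifiers of this duplicated kind occur in the files, 10 of them with counts. U2AF1, a splicing factor that every cell uses, had only 4 to 13 counts in any sample and its duplicate 4 to 12. Whether reads of SIK1 went uncounted was not tested, and its level per length may be a low reading in both groups.

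SIK2, on chromosome 11 from 111473173 to 111601579, had 83.4, 90.1 and 84.4 CPM in DMSO replicates 1, 2 and 3 and 85.5, 85.3 and 92.7 CPM in AZD7762 replicates 1, 2 and 3. SIK3, also on chromosome 11, from 116714118 to 116969153, had 94.6, 94.1 and 93.7 CPM in DMSO and 89.1, 97.1 and 102 CPM in AZD7762. The groups overlapped for both kinases. The log2 fold change was 0.03 for SIK2 (95% interval -0.10 to 0.16) and 0.03 for SIK3 (-0.11 to 0.17), so that the intervals leave room for a change of at most 1.12-fold in either gene.

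**Figure D2:**
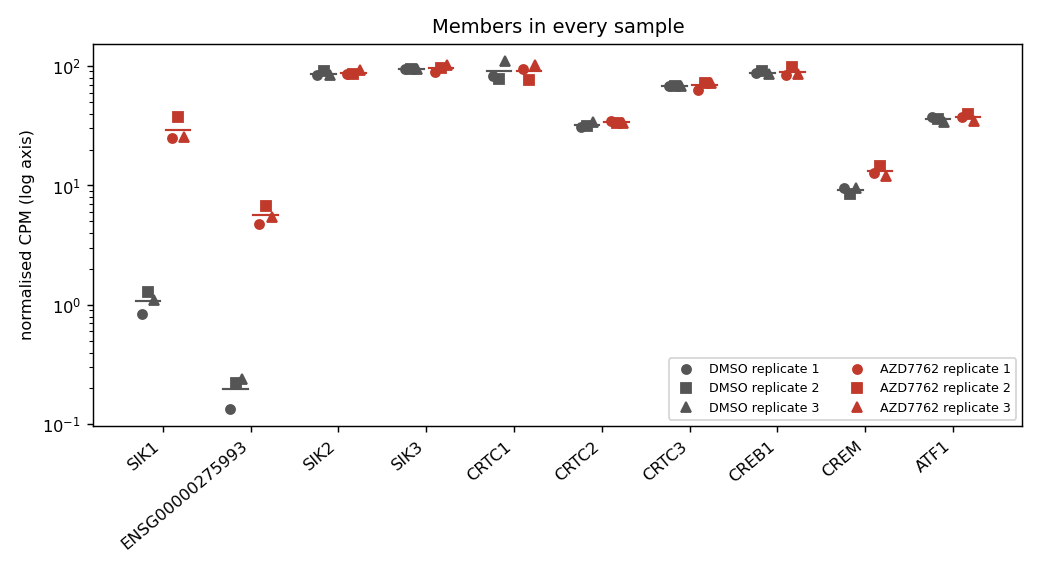
Normalised CPM of the 10 identifiers in every sample on a log axis, with DMSO in grey, AZD7762 in red, one symbol per replicate and a line at each group mean. The SIK1 identifiers and CREM separate by group, and the other 7 overlap.

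As the changes fell on 1 kinase, the makeup of the family differed between the groups. Per length and without the second identifier, SIK1 was 0.934%, 1.36% and 1.21% of the SIK total in DMSO replicates 1, 2 and 3 and 22.2%, 29.1% and 20.5% in AZD7762 replicates 1, 2 and 3. The total stood at 17.7 ± 0.399 CPM per kb (SD, n = 3) in DMSO and 23.5 ± 1.58 in AZD7762, with no overlap between the samples. Without SIK1 the total was 17.4 ± 0.363 in DMSO and 17.8 ± 0.969 in AZD7762, and the groups overlapped. As counted, SIK2 and SIK3 together made up 70.9% to 79.5% of the total in the AZD7762 samples, a share that would be lower if reads of SIK1 went uncounted.

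**Figure D3:**
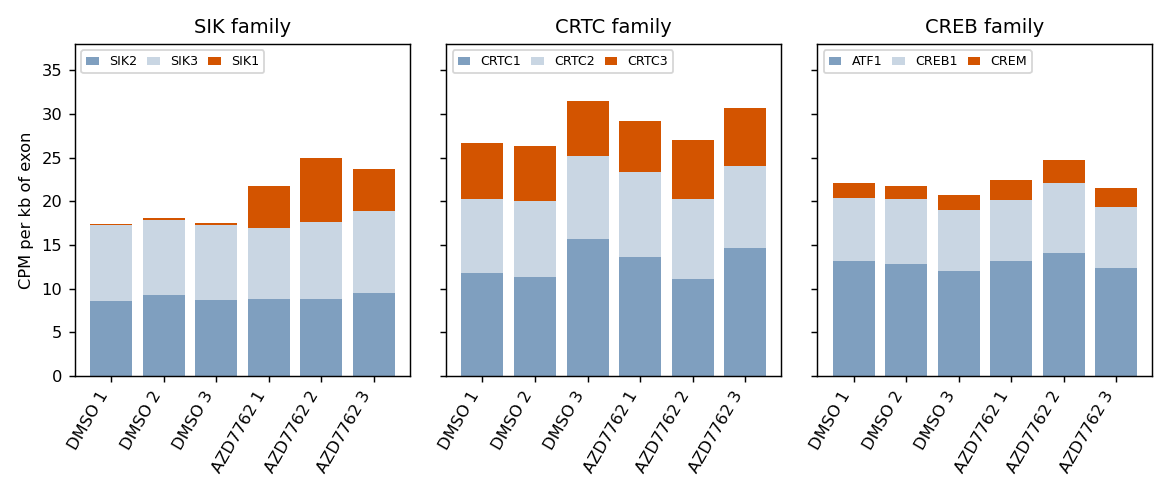
Summed level of the SIK, CRTC and CREB families in every sample as CPM per kb of exon, stacked by gene, without the second SIK1 identifier. SIK1 is a thin layer in DMSO and 20.5% to 29.1% of the SIK total in AZD7762, whereas the CRTC totals overlap between the groups.

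The 3 CRTC genes overlapped between the groups in every case. CRTC1, on chromosome 19 from 18794488 to 18893143, had 82.2, 78.6 and 109 CPM in DMSO replicates 1, 2 and 3 and 94.9, 77.0 and 102 CPM in AZD7762 replicates 1, 2 and 3. Replicate 3 was the highest of its group in both treatments, and CRTC1 varied most among the abundant members, with a coefficient of variation of 18.7% in DMSO against a median of 7.33% over all genes tested. Its log2 fold change was 0.03 (SE 0.123, 95% interval -0.24 to 0.29). Without DMSO replicate 3 it was 0.19, and with GC and length trends removed from each library it was -0.04 with an SE of 0.060. Exons of CRTC1 have a GC content of 61.9%.

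CRTC2, on chromosome 1 from 153920145 to 153931091, is the coactivator best known from cyclic AMP signalling in liver and β cells. It had 30.6, 31.4 and 34.2 CPM in DMSO replicates 1, 2 and 3 and 34.9, 33.2 and 33.6 CPM in AZD7762 replicates 1, 2 and 3. The highest DMSO sample lay within the AZD7762 range, and the log2 fold change was 0.08 (95% interval -0.07 to 0.24), the highest of the 7 members that were not called.

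CRTC3, on chromosome 15 from 91073155 to 91188577, was the steadiest coactivator in DMSO, with 68.6, 67.7 and 68.0 CPM in replicates 1, 2 and 3. In AZD7762 it spread on both sides of these values, with 63.4, 72.6 and 71.6 CPM, and its log2 fold change was 0.02 (95% interval -0.12 to 0.16). The CRTC total per length was 28.1 ± 2.90 CPM per kb in DMSO and 28.9 ± 1.85 in AZD7762.

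CREB1, on chromosome 2 from 208394461 to 208470712, is the founding cyclic AMP response factor. It had 87.0, 90.2 and 85.3 CPM in DMSO replicates 1, 2 and 3 and 84.6, 97.3 and 85.6 CPM in AZD7762 replicates 1, 2 and 3. The groups overlapped, with a log2 fold change of 0.03 (95% interval -0.12 to 0.17). ATF1, its close relative on chromosome 12 from 51157493 to 51214945, had 37.3, 36.1 and 33.9 CPM in DMSO and 37.3, 39.9 and 34.8 CPM in AZD7762, again with overlap. Its log2 fold change was 0.06 (95% interval -0.10 to 0.22).

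CREM encodes activators and, from its internal promoter, short repressors of cyclic AMP responses, and a count over the whole gene does not separate them. It lies on chromosome 10 from 35415719 to 35501886. In DMSO replicates 1, 2 and 3 it had 283, 230 and 198 counts, or 9.58, 8.46 and 9.49 CPM, and in AZD7762 replicates 1, 2 and 3 it had 322, 306 and 257 counts, or 12.8, 14.5 and 12.1 CPM. All AZD7762 samples were above all DMSO samples, with AZD7762 replicate 2 again the highest. The log2 fold change was 0.52 (SE 0.104, 95% interval 0.29 to 0.74), or 1.43-fold.

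CREM supplied 7.51 ± 0.614% (SD, n = 3) of the CREB1, CREM and ATF1 total per length in DMSO and 10.1 ± 0.254% in AZD7762, and this share did not overlap between the groups. The total itself did, at 21.5 ± 0.712 CPM per kb in DMSO and 22.8 ± 1.64 in AZD7762. CREM shares 3.6% of its exon length with genes on the opposite strand, and whether the counting used strand is not given in the sources used here. CREM lay near the threshold of the test, and its call was lost with no scaling beyond library totals, with every sample required to hold 10 counts, and on leaving out DMSO replicate 1, DMSO replicate 2, AZD7762 replicate 1 or AZD7762 replicate 2, the last 4 with log2 fold changes of 0.55, 0.45, 0.53 and 0.43.

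A gene was called when its p from the quasi-likelihood test of edgeR, after Benjamini-Hochberg adjustment over all genes tested, was under 0.05. By this rule 3 of the 10 identifiers were called, namely SIK1, its second identifier and CREM, beside 0.708% of all genes tested. The same 3 of 10 had no overlap between the groups, which held for 15.0% of all genes. Since the members were listed with this contrast known, nothing is read from these counts. The log2 fold changes of the other 7 lay between 0.02 and 0.08. The sign of 5 of them, SIK2, SIK3, CRTC1, CRTC3 and CREB1, turned when libraries were scaled by their totals alone, and without CRTC1 their intervals stayed between -0.12 and 0.24.

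**Figure D4:**
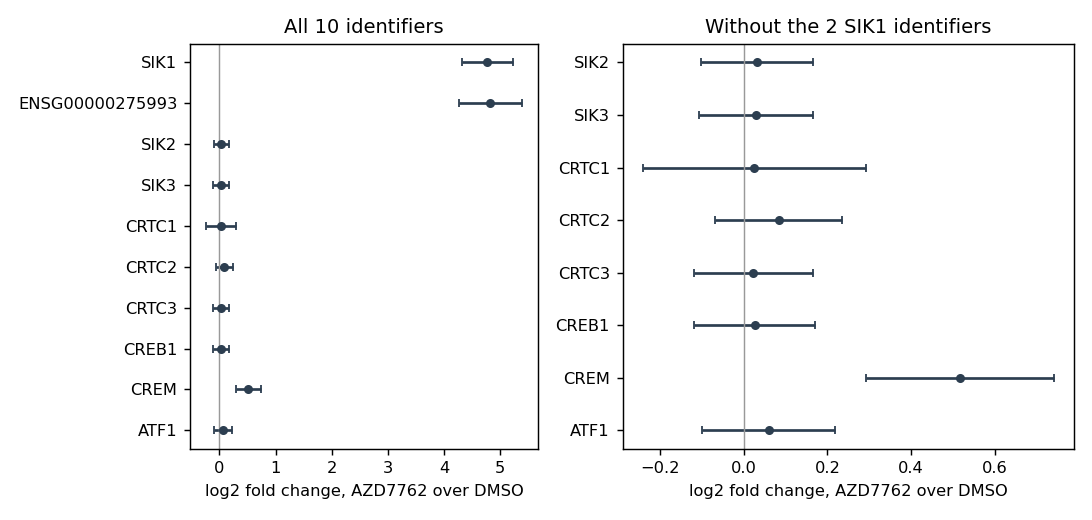
Fitted log2 fold change of AZD7762 over DMSO with its 95% interval for all 10 identifiers on the left and without the SIK1 identifiers on a wider scale on the right. The SIK1 identifiers lie at 4.77 and 4.83, CREM at 0.52, and the intervals of the other 7 include 0.

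The genes that act on the members were taken from lists of their known functions, which were also written with earlier results known. In the 8 lists other than CREB targets, no gene was called by the quasi-likelihood test of edgeR, its likelihood ratio test or DESeq2. PKA subunits and inhibitors had 0 of 9 called and a median log2 fold change of 0.06, against 0.01 over all genes tested. The regulatory subunit PRKAR1A was the most abundant per length, at 38.8 ± 2.57 CPM per kb in DMSO and a log2 fold change of 0.08. PRKAR1B was the 1 gene of this list with an unadjusted p under 0.05 (as were 9.68% of all genes tested), at a log2 fold change of 0.20 and an adjusted p of 0.497, and shares 7.72% of its exon length with a gene on the opposite strand.

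The LKB1 complex had 0 of 5 called, and none had an unadjusted p under 0.05. Its scaffold CAB39 was the most abundant, with a log2 fold change of 0.05. The other kinases that LKB1 activates had 0 of 11 called, a median of -0.04 and 2 at an unadjusted p under 0.05, NUAK2 and MARK3. NUAK2, a stress-responsive AMPK relative, had 10.9, 10.4 and 12.0 CPM in DMSO replicates 1, 2 and 3 and 8.99, 8.74 and 8.16 CPM in AZD7762 replicates 1, 2 and 3. The AZD7762 samples were all below the DMSO samples, with a log2 fold change of -0.36 (SE 0.0999) and an adjusted p of 0.202, and NUAK2 was called, at -0.42, once GC and length trends were removed. PRKAA1, an AMPK catalytic subunit, was the most abundant of this list, with a log2 fold change of -0.04.

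Calcineurin and its regulators had 0 of 7 called, none at an unadjusted p under 0.05, with RCAN3, a regulator of calcineurin, the most abundant and a log2 fold change of -0.07. The 14-3-3 proteins had 0 of 6 tested genes called and none at an unadjusted p under 0.05, and the seventh, SFN, had at most 5 counts. YWHAQ was the most abundant 14-3-3 gene, at 492 ± 29.8 CPM per kb in DMSO and a log2 fold change of 0.03.

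Class IIa histone deacetylases and MEF2 factors, which the SIKs control beside the CRTCs, had 0 of 6 tested genes called and 2 at an unadjusted p under 0.05, HDAC5 and MEF2D. HDAC5 had a log2 fold change of 0.21 and an adjusted p of 0.392 and shares 24.0% of its exon length with a gene on the opposite strand. MEF2A was the most abundant, with a log2 fold change of -0.03. The kinases of CREB and its acetyltransferase partners had 0 of 12 called and none at an unadjusted p under 0.05, with RPS6KA3, a CREB kinase, the most abundant. The other factors named for CREB or related to ATF2 had 0 of 9 tested genes called and none at an unadjusted p under 0.05, with CREB3L2, a membrane-bound relative, the most abundant.

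Textbook CREB targets stand at the end of this route. Of 30 targets 24 passed the filter, and 11 were called, 10 higher and 1 lower in AZD7762, with a median log2 fold change of 0.30 over the 24. Among all genes tested 0.357% were called higher and 0.351% lower. Many of these targets are also immediate early genes that answer to growth factor and stress kinases, the list was written with these results known, and it is no independent evidence of a direction.

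The NR4A genes encode orphan nuclear receptors that cyclic AMP induces within the hour. NR4A1 and NR4A2 were called, with log2 fold changes of 3.50 (SE 0.112) and 3.93 (SE 0.142). NR4A3 had 4.20, 3.49 and 3.69 CPM in DMSO replicates 1, 2 and 3 and 8.03, 17 and 10.2 CPM in AZD7762 replicates 1, 2 and 3. The lowest AZD7762 sample was above the highest DMSO sample, and the log2 fold change was 1.62 (SE 0.233, adjusted p = 0.00383 in the quasi-likelihood test of edgeR). NR4A1 shares 10.3% of its exon length with an antisense gene.

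The AP-1 and zinc finger factors FOS, JUNB and EGR1 were called higher as well, with log2 fold changes of 2.92 for FOS, 1.47 for JUNB and 1.04 for EGR1. JUNB spread widely, with 27.8, 20.4 and 45.1 CPM in DMSO replicates 1, 2 and 3 and 91.2, 64.2 and 99.6 CPM in AZD7762 replicates 1, 2 and 3, and shares 14.2% of its exon length with HOOK2 on the opposite strand. Its groups did not overlap, yet its call was lost without AZD7762 replicate 1, with a log2 fold change of 1.40. FOSB had 7.99, 2.65 and 2.49 CPM in DMSO and 6.92, 7.98 and 7.13 CPM in AZD7762. DMSO replicate 1 lay just above every AZD7762 sample, so the groups overlapped. FOSB was not called, at a log2 fold change of 0.70. It was called without DMSO replicate 1, at 1.5, and without a filter on low counts.

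Signal-terminating targets were called too. DUSP1, a phosphatase of MAP kinases, had 69.3, 99.8 and 68.7 CPM in DMSO replicates 1, 2 and 3 and 281, 243 and 241 CPM in AZD7762 replicates 1, 2 and 3, a log2 fold change of 1.69 (SE 0.125, adjusted p = 9.58e-06 in the quasi-likelihood test of edgeR). RGS2, which shortens G protein signalling, had 12.7, 11.1 and 12.0 CPM in DMSO and 54.9, 66.1 and 59.3 CPM in AZD7762, a log2 fold change of 2.33 (SE 0.0884). Neither gene's groups overlapped. GEM, a small GTPase that restrains calcium channels, had a log2 fold change of 0.84 (SE 0.106), and GADD45B, a stress response gene, one of 1.76 (SE 0.198).

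PTGS2, the inducible cyclooxygenase, was the only target called lower. It had 30.3, 26.4 and 24.2 CPM in DMSO replicates 1, 2 and 3 and 16.1, 16.6 and 16.6 CPM in AZD7762 replicates 1, 2 and 3. The AZD7762 samples were close together and all below DMSO, with a log2 fold change of -0.72 (SE 0.0917, adjusted p = 0.00137 in the quasi-likelihood test of edgeR). SST, the most abundant target per length and a hormone gene with a classical response element, had 227, 202 and 214 CPM in DMSO and 265, 253 and 242 CPM in AZD7762. These did not overlap either, but SST was not called, with a log2 fold change of 0.24 (SE 0.0633, adjusted p = 0.160).

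**Figure D5:**
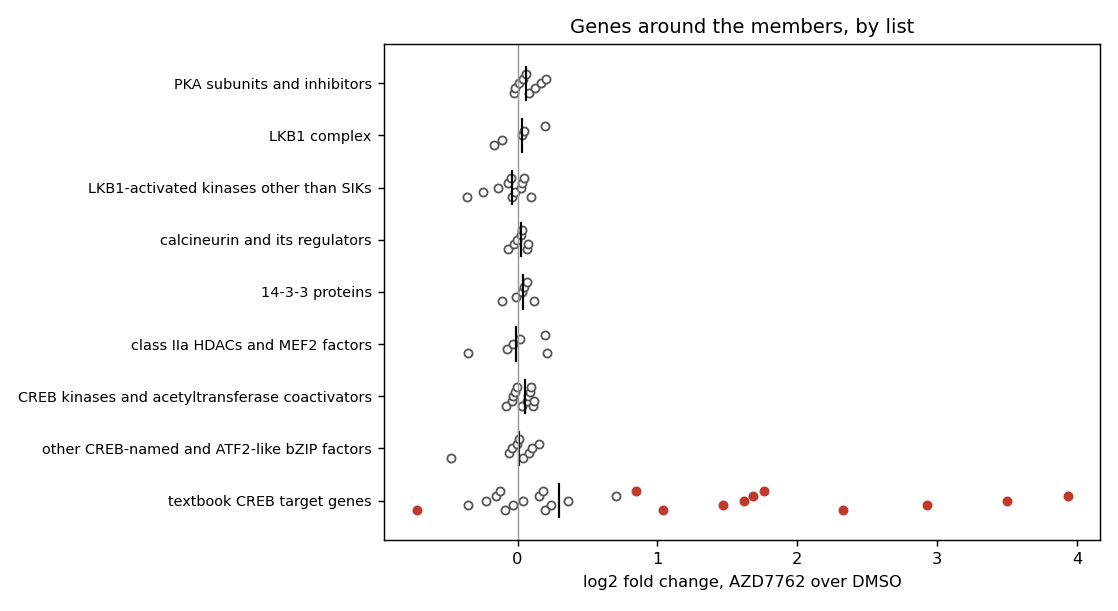
Fitted log2 fold change of AZD7762 over DMSO for the tested genes of each list, with called genes filled in red, other genes open and a bar at each list's median. Called genes occur only among the textbook CREB targets, where 10 lie to the right of 0 and PTGS2 to the left.

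Promoter windows of the targets were searched in the same way. Of 25 targets with a window 5 held the full element and 18 at least 1 half-site. Of the 9 called targets with a window 1 held the full element, DUSP1, and 7 at least 1 half-site. A gene counted if any of its windows, up to 8, held the letters. The shares given earlier are per window and not per gene, so nothing is read from these counts. SST, VGF, CCNA2 and AREG, which hold the full element, were not called.

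Likeness to SIK1 over the 6 samples was the Euclidean distance between log2 CPM values set relative to the DMSO mean. Such a distance follows mainly the size of the difference between the groups, on which the members were chosen. It supports no link between genes. The nearest genes were sought among 13830 tested genes whose log2 CPM averaged 1 or more. They were KCNE4, a potassium channel subunit, at a distance of 0.501, NR4A2 at 1.42, NPAS4, an activity-dependent transcription factor, at 2.09, NR4A1 at 2.26 and FOS at 3.18. KCNE4 had 0.643, 0.846 and 0.863 CPM in DMSO replicates 1, 2 and 3 and 16.5, 20.8 and 19.6 CPM in AZD7762 replicates 1, 2 and 3. Like SIK1 it was lowest in DMSO replicate 1 and highest in AZD7762 replicate 2, with a log2 fold change of 4.60. NPAS4 was instead highest in DMSO replicate 1 and lowest in AZD7762 replicate 2. It had 0.542, 0.294 and 0.192 CPM in DMSO and 18, 12.7 and 18.7 CPM in AZD7762. The lowest DMSO value of NPAS4 was close to the floor of detection, so the order of its DMSO samples is uncertain. Like KCNE4, NPAS4 reached the cutoff on average log2 CPM only through AZD7762.

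As the search kept to 116 called genes, a difference between the groups was fixed in advance for the genes most like CREM. They were PNRC1 (distance 0.0958), DIPK2A (0.115), TENT5A (0.199), TUBA4A (0.246) and ADRA2A (0.258), with log2 fold changes of 0.40 to 0.55. PNRC1, a nuclear receptor coactivator, had 27.8, 23.3 and 26.2 CPM in DMSO replicates 1, 2 and 3 and 36.2, 38.7 and 34.0 CPM in AZD7762 replicates 1, 2 and 3. As for CREM, DMSO replicate 2 was the lowest and AZD7762 replicate 2 the highest. TENT5A, a terminal nucleotidyltransferase, had 181, 161 and 159 CPM in DMSO and 231, 260 and 240 CPM in AZD7762. ADRA2A, the adrenergic receptor that lowers cyclic AMP in β cells, had 38, 36.1 and 37 CPM in DMSO and 46.0, 52.2 and 49.0 CPM in AZD7762.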

How the data were processed

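RNA-seq was made from 6 samples of EndoC-βH1 cells, grouped as DMSO or AZD7762 by their labels. The deposited files hold raw counts, whole numbers per Ensembl gene that the authors obtained by quality control (FastQC 0.10.1), trimming (cutadapt 1.18), alignment, for which the sources name GRCh37, and HTSeq-count. The identifiers include duplicates of a GRCh38 kind, so the annotation behind the counts is uncertain. The aligner version, annotation release and strand setting are not given in the sources used here, and libraries came from either of 2 kits, 1 of them stranded, without a statement of which sample used which. Symbols, positions and exon lengths came from GENCODE on GRCh37, which matched 58646 of 60671 identifiers, and promoter windows from RefSeq on GRCh38.p14.

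The analysis used edgeR 4.0.16 in R 4.3.3 (filterByExpr, TMM factors of 0.983 to 1.02, quasi-likelihood test with treatment as the term, Benjamini-Hochberg adjustment over 17649 genes, threshold 0.05). The self-test on simulated counts of 17407 genes called 97.5% of 200 changed genes and 18 unchanged ones. The share of false calls in this simulation was thus above the threshold of 0.05. The biological coefficient of variation was 7.15%. CPM are TMM-scaled, except the floor and the summed marker levels, and CPM per kb are divided by merged exon length. Standard errors come from the fit, tests are two-sided, and alternatives included DESeq2 1.42.0, other scaling, filters, GC and length trends, a replicate term and leaving out each sample.

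The members and gene lists were chosen with earlier results of these data known. Named genes were every member, the called genes of each list, its most abundant gene, where none was called the gene with the largest change at an unadjusted p under 0.05, and the 5 genes nearest SIK1 and CREM. MARK3, MEF2D, FOSB, SFN, U2AF1 and uncalled targets with the full element were added after their values were seen. A planned protein comparison was not run. A further β cell marker is not reported here.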

Additional observations from a re-analysis of the deposited data

How the results depend on the processing

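The difference of SIK1 kept its direction under all 17 alternatives and that of ENSG00000275993 under the 15 that gave it a value. The second identifier has none with at least 10 counts in every sample, which its DMSO libraries do not reach, or when summed with SIK1. The members were chosen on this contrast, so this is no further support. SIK1 had log2 fold changes of 4.55 to 4.93 on leaving out 1 sample and 4.66 to 4.78 otherwise. CREM kept its direction but lost its call with no scaling beyond library totals (0.48), with at least 10 counts in every sample (0.51) and in 4 of the 6 fits without 1 sample, whose values ran from 0.43 to 0.57. Other members were called under no alternative. Scaling by library totals alone turned the sign of SIK2 (-0.0048), SIK3 (-0.0062), CRTC1 (-0.010), CRTC3 (-0.013) and CREB1 (-0.0094), and removing GC and length trends turned that of CRTC1 (-0.036, and -0.037 with the replicate block). Leaving out 1 sample gave -0.0084 to 0.059 for SIK2, -0.015 to 0.073 for SIK3, -0.071 to 0.19 for CRTC1, -0.020 to 0.075 for CRTC3 and -0.047 to 0.055 for CREB1. Genes called over the whole table numbered 125, against 330 without a filter, 267 with the likelihood ratio test, 234 with GC and length trends removed, and 77 to 168 on leaving out 1 sample, the lowest without AZD7762 replicate 1, which kept 75 of the 125. The causes of these shifts were not tested.

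Replicate numbers are shared by the groups. Deviations of same-numbered samples correlated at 0.049, 0.12 and 0.20 across genes, the first below the 0.1 set for pairing. DMSO replicates 2 and 3 correlated best with the AZD7762 sample of their own number and DMSO replicate 1 with AZD7762 replicate 2 (0.17). No label ties the numbers to a shared culture or day, and they were not treated as pairs. The replicate block raised the calls to 378, and to 488 with GC and length trends removed, and changed the call of no member. With GC and length trends removed 1 kinase of the LKB1 list, NUAK2, was called. Called CREB targets numbered 10 to 13 under other scaling, DESeq2, GC trends, the block and leaving out 1 sample. SST, CCNA2 and the β cell marker NEUROD1 were called with the block, CCNA2 also with GC and length trends removed, and SST, FOSB, PDE10A and NEUROD1 without a filter. The DMSO counts of the second SIK1 identifier, 4 to 6, limit the precision of its fold change. The comparison of member proteins was not run.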
